A study of Mus musculus with 8 samples.

Results

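Leukaemia inhibitory factor (LIF) signalling was described here through 10 genes, which were chosen by name. They encode the ligand (Lif), its receptor chain (Lifr), the shared signal-transducing chain gp130 (Il6st), the kinases Jak1 and Jak2, the transcription factor Stat3, the inhibitors Socs1, Socs2 and Socs3, and the kinase Pim1. All 10 stood in the deposited table, on 1 row each of 17922 rows. The study followed mouse embryonic fibroblasts (MEFs) on their way to induced pluripotent stem cells (iPSCs), with long RNA sequenced from 1 library at each of 4 stages. The groups were MEFs from C57BL/6 fetuses of 13.5 days (day 0), such cells after 3 and 6 days of induction, and iPSCs made from MEFs. The cells come from tetO-OSKM mice, in which doxycycline switches on the 4 reprogramming factors known as OSKM, and this transgene is shared by every group. For reprogramming, doxycycline was given at 2 ug/ml, in a serum-replacement medium with 1000 U/mL LIF and 3 uM CHIR99021, an inhibitor of the kinase GSK3. The media of the MEFs before induction and of the established iPSCs are not stated in the sources used here. Medium and induction therefore cannot be told apart between MEFs and day 3. Whether the iPSCs are 1 clone or were grown on feeder cells is likewise not given.

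LIF binds LIFR, which pairs with gp130, and the JAK kinases attached to the pair phosphorylate STAT3. Phosphorylated STAT3 enters the nucleus and raises transcription of its targets, among them Socs3, whose protein binds gp130 and the JAKs and damps the signal. In mouse embryonic stem cells this pathway helps to hold the naive pluripotent state, which is why LIF is a standard part of their medium. Most control of the pathway is by phosphorylation, which RNA levels do not measure. The added LIF is a protein, so the Lif row counts only the RNA that the cells themselves made.

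Values are FPKM, fragments scaled to gene length and library size, as deposited, so levels of different genes in a library can be set side by side. With 1 library per stage no difference has an error and none was tested. Differences were taken on the scale log2(FPKM + 1), and the rule of size for a higher or lower gene asked for a difference of 1 or more, with 1 FPKM or more in the higher library. The number of reads per library is not stated, and from the lowest values the day 3 library held roughly 0.648 times the fragments of the MEF library, the others 1.05 times. The 10 fibroblast markers summed to 11260 FPKM in MEFs, between 10806 and 11281 at day 3 and day 6, and 245 in iPSCs. The 10 pluripotency markers summed to 1.34 FPKM in MEFs, then 4.85 at day 3, 11.2 at day 6 and 2011 in iPSCs, so the iPSC library carried the markers of its label. At day 3 and day 6 most of this sum came from Pou5f1 (3.03 and 8.56 FPKM) and Sox2 (1.19 and 2.03 FPKM), which are induced factors whose transgene reads are not separated. Nanog, which is not induced, was at 0.398, 0.270, 0.241 and 171 FPKM. The day 3 and day 6 libraries carried mainly fibroblast RNA. In bulk RNA, fewer cells of a type and less RNA per cell cannot be told apart.

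Between MEFs and iPSCs the pathway's genes divided. The RNA of Lifr, Socs2, Socs3 and Pim1 was higher in iPSCs, that of Lif, Il6st, Jak1, Jak2 and Stat3 was lower, and that of Socs1 was within the rule. So 4 of 10 members were higher and 5 lower, and the median difference of the 10 was -0.79. Over all 12937 rows compared, 46.0% were past the rule, 21.1% higher and 25.0% lower, with a median of -0.05. A large part of the transcriptome thus differed between these libraries, and the sizes of the members' differences are read against that. At day 3 and day 6 all 10 members were within the rule against MEFs, where 0.221% and 1.35% of all rows were past it. From day 3 to day 6 all 10 were within it as well, beside 0.855% of all rows past it.

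**Figure D1:**
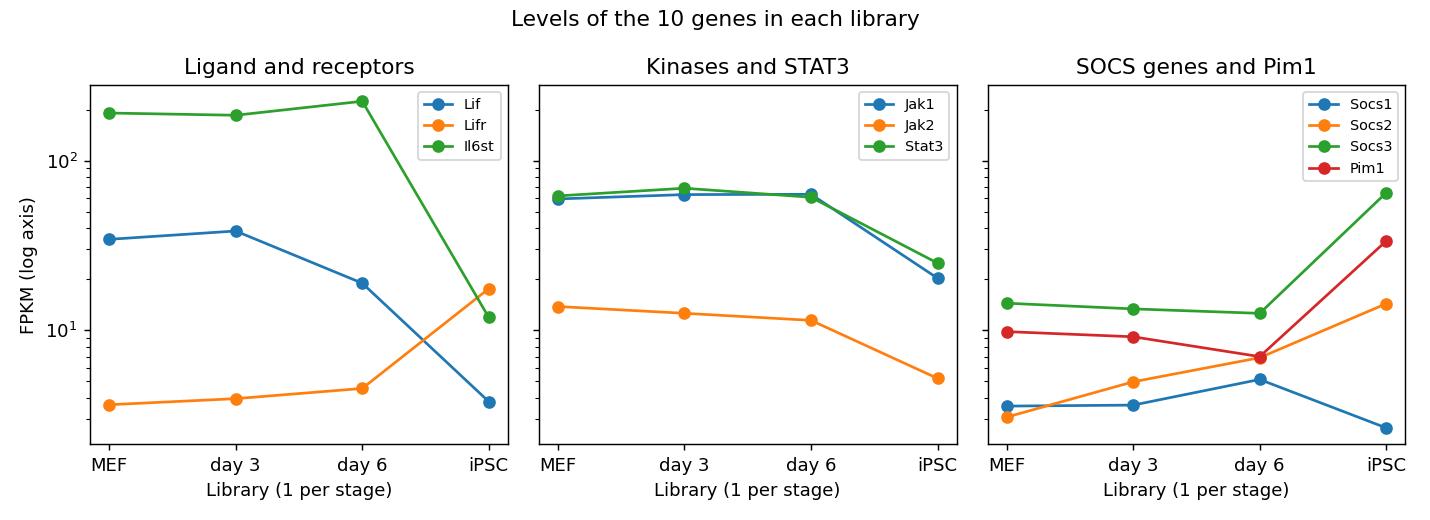
FPKM (log axis) of the 10 genes in the MEF, day 3, day 6 and iPSC libraries, 1 point per library with lines joining the stages, in panels by role. The first 3 libraries lie close together for most genes, and in the iPSC library Lifr (17.6 FPKM) stands above Il6st (11.9 FPKM) while Socs3 (64.8 FPKM) is the highest of the 10.

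The start regions of 3 members that were high together in iPSCs are shown so that their promoters can be compared. The 250 bases before the start of Socs3, of Pim1 and of Lifr are given from RefSeq, build GRCm38.p6, written 5′ to 3′ on the gene's strand. Capitals mark the motif TTCNNNGAA, the core of the sequence that STAT factors bind.

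Socs3, chr11:117969367-117969616, minus strand: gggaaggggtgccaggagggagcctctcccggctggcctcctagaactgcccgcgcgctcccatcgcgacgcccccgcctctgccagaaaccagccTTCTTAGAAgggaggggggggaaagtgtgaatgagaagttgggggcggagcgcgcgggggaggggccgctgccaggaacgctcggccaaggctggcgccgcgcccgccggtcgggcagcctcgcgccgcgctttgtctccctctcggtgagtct

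Pim1, chr17:29490535-29490784, plus strand: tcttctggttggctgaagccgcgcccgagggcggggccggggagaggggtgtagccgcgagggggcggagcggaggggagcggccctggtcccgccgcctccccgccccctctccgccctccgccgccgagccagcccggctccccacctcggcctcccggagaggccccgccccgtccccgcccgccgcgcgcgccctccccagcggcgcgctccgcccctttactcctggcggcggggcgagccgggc

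Lifr, chr15:7129322-7129571, plus strand: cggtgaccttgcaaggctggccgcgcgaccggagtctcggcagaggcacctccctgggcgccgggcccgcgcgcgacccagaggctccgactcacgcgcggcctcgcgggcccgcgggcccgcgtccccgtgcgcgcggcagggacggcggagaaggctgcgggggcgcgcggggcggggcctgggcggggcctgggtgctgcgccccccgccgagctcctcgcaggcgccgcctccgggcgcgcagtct

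Of the 10 members, 9 had a start window in the RefSeq table, with 11 windows in all, since Lifr and Pim1 have 2 each and the first of each is shown. Socs2, which was also higher in iPSCs than in MEFs, had no window and was not searched. Windows of 300 bases, reaching 50 bases past the start, were searched on both strands. Only the Socs3 window held TTCNNNGAA, once, as TTCTTAGAA beginning 154 bases before the start. Of 32851 windows in the whole table, 8.30% hold this motif. The narrower form TTCCNGGAA, which lies within the wider one, was in 0 of the 9 members' windows and in 1.15% of all windows. A match is a run of letters and not a measured site, and the windows without one say nothing of sites farther away. The Pim1 and Lifr stretches were both 82.4% G and C and that of Socs3 71.6%.

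Lif, the gene of the ligand, was highest in the MEF and day 3 libraries and lowest in iPSCs. Its level was 34.4 FPKM in MEFs, then 38.5 at day 3, 19.0 at day 6 and 3.80 in iPSCs. The day 6 and iPSC libraries were the low ones, and the MEF and day 3 libraries were close. The iPSC level was 9.04 times below that of MEFs, with a log2 difference of -2.88, and 8.02% of all rows compared differed at least as much. From day 3 to day 6 the level went down by 2.03 times, a log2 difference of -0.98 that lies just under the rule. Only 0.939% of rows differed that much between these libraries, a share close to that of rows past the rule. With a pseudocount of 0.1 in place of 1 the difference was -1.02 and past it.

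The lower Lif level at day 6 stood beside lower levels of immediate early genes, which cells switch on within minutes of a stimulus such as serum. Of 12 such genes 11 were below their day 3 value at day 6, with a median difference of -0.40 against -0.01 over all rows. Fos went from 130 to 72.5 FPKM, and Dusp1, a phosphatase of MAP kinases, from 302 to 205. Smaller differences were those of Junb, from 124 to 102 FPKM, and Ier3, from 128 to 118. Jun was above its day 3 value, at 32.9 and 35.1 FPKM. Fosb was past the rule, at 7.25 and 2.99 FPKM. The summed level of the 12 was 1076 FPKM in MEFs, then 1097 at day 3, 829 at day 6 and 127 in iPSCs. Their part in the Lif values was not tested.

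The 2 receptor chains went opposite ways. Lifr, the chain that binds LIF, was at 3.65 FPKM in MEFs, then 3.96 at day 3, 4.55 at day 6 and 17.6 in iPSCs. The first 3 libraries were low and close, and iPSCs stood 4.83 times above MEFs, with a log2 difference of 2.00. Of all rows compared, 16.9% differed at least as much. Il6st, which encodes gp130 and serves all cytokines of the IL-6 family, was at 191, 185, 224 and 11.9 FPKM in the same order. It was the highest of the 10 members in each of the first 3 libraries and only the seventh in iPSCs. The iPSC level was 16.0 times below that of MEFs, a log2 difference of -3.89 that 3.45% of all rows reached or passed in size, the largest of the 10 members.

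Set against each other within a library, which removes library scaling, the chains changed order. The Lifr to Il6st ratio was 0.0191 in MEFs, then 0.0214 at day 3, 0.0203 at day 6 and 1.48 in iPSCs. Il6st thus exceeded Lifr by between 46.8 and 52.3 times in the first 3 libraries, and Lifr exceeded Il6st in iPSCs. From MEFs to iPSCs the ratio differed by 77.4 times. With 1 FPKM added to both values it was 0.0242, 0.0266, 0.0247 and 1.44.

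Il6st and Lif kept more of their MEF level than the fibroblast markers did. In iPSCs Il6st was at 6.24% and Lif at 11.1% of the MEF value. The median of the 10 fibroblast markers was 1.14%, and the highest of them was Vim at 4.82%. The part of fibroblast RNA in these values was not tested.

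The kinases and STAT3 were lower in iPSCs by smaller amounts. Jak1, which is held to carry most of the signal from gp130, was at 59.5 FPKM in MEFs, then 63.1 at day 3, 63.4 at day 6 and 20.3 in iPSCs. Jak2, the second kinase bound to these receptors, was at 13.8, 12.6, 11.5 and 5.21 FPKM. Stat3 was at 62.0, 68.8, 60.9 and 24.9 FPKM. For each of these genes the iPSC library was the low one, 2.93 times below MEFs for Jak1, 2.65 for Jak2 and 2.49 for Stat3. The log2 differences were -1.51, -1.25 and -1.28, sizes reached or passed by 27.2%, 35.4% and 34.5% of all rows, so they were not unusual among genes of these libraries. Jak2 depended on the pseudocount, with a difference of -0.88 from MEFs at a pseudocount of 5. Against day 6 its difference of -1.00 lay on the edge of the rule. The Jak2 to Jak1 ratio was 0.232 in MEFs, then 0.200 at day 3, 0.181 at day 6 and 0.257 in iPSCs, so these kinases were lower nearly in proportion.

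Stat3 remained a well-expressed gene in iPSCs. Of the rows of at least 1 FPKM, 11.1% stood above it in MEFs and 25.8% in iPSCs, and among the 10 members it was the second in MEFs and the third in iPSCs. It held 52.0% of the summed FPKM of the 7 STAT genes in MEFs and 39.7% in iPSCs, the highest share in both.

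Socs3 and Pim1, 2 direct STAT3 targets in embryonic stem cells, were high in iPSCs. Socs3, the main feedback inhibitor of gp130 signalling, was at 14.5 FPKM in MEFs, then 13.4 at day 3, 12.6 at day 6 and 64.8 in iPSCs. Pim1, a serine and threonine kinase that favours survival and growth, was at 9.83, 9.17, 7.00 and 33.6 FPKM. In both genes the first 3 libraries were low and the iPSC library was high, by 4.48 times over MEFs for Socs3 and by 3.42 times for Pim1. The log2 differences were 2.09 and 1.68, and 15.7% and 23.2% of all rows differed as much. They were the highest and the second highest of the 10 members in iPSCs, against the fifth and the seventh in MEFs.

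The inhibitor and its activator thus went opposite ways in RNA. The Socs3 to Stat3 ratio was 0.233 in MEFs, then 0.195 at day 3, 0.207 at day 6 and 2.60 in iPSCs, which is 11.1 times the MEF value. At day 3 and day 6, in medium with LIF, Socs3 and Pim1 were below their MEF levels by differences within the rule. The MEFs' own exposure to LIF or serum is not given.

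The other SOCS members differed from Socs3 and from each other. Socs2, best known as a brake on growth hormone receptor signalling, was at 3.08 FPKM in MEFs, then 4.98 at day 3, 6.90 at day 6 and 14.4 in iPSCs. Socs2 and Lifr were the members whose level was higher at every successive stage. For Socs2 iPSCs stood 4.66 times above MEFs, with a log2 difference of 1.91 that 18.5% of all rows reached or passed in size. The early Socs2 differences were within the rule, 0.55 at day 3 and 0.95 at day 6 against MEFs. These sizes were reached or passed by 1.98% and 1.56% of rows. The day 6 value was past the rule with a pseudocount of 0.1, at 1.14, and after scaling the libraries to the same sum, at 1.04. Socs1, an inhibitor that binds JAKs directly and is best known from interferon signalling, was at 3.58, 3.63, 5.14 and 2.66 FPKM. It was highest at day 6 and lowest in iPSCs, and no stage was past the rule. Its difference of 0.42 between day 6 and MEFs was reached or passed in size by 12.1% of rows.

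**Figure D2:**
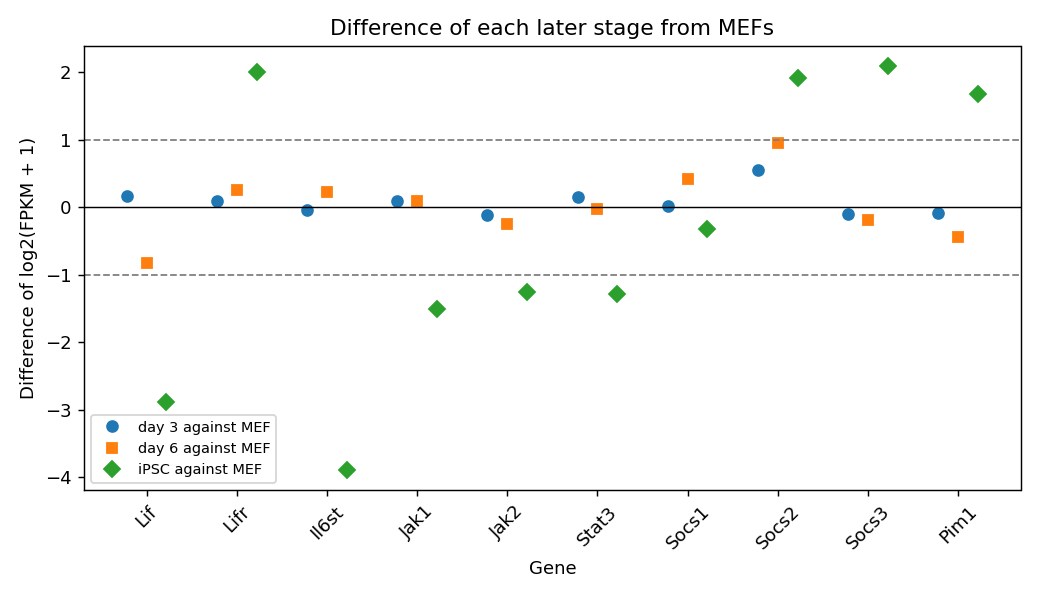
Difference of log2(FPKM + 1) from the MEF library for each of the 10 genes (circles day 3, squares day 6, diamonds iPSCs, 1 library each), with dashed lines at the rule of 1. All circles and squares lie within the lines, Socs2 (0.95) and Lif (-0.83) at day 6 nearest to them, and 9 of 10 diamonds lie outside.

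Over the first 3 libraries, 8 of 10 members kept within 1.5 times between their highest and lowest values, and Lif and Socs2 did not, with 2.03 and 2.24 times. Of 11884 rows of at least 1 FPKM in any of those libraries, 13.1% had a range of 1.5 times or more. The iPSC value lay outside the range of the other 3 libraries for 10 of 10 members, as it did for 92.5% of 13101 rows, so that count is near the background. Against day 6 in place of MEFs, 3 members were higher in iPSCs (Lifr, Socs3 and Pim1) and the same 5 lower, against 43.8% of 12951 rows past the rule, 20.4% higher and 23.4% lower. Socs2 was then within it at 0.96, since its day 6 level was already above that of MEFs. It was past it with a pseudocount of 0.1, at 1.05, after scaling to the same upper quartile, at 1.07, and after scaling by the median ratio, at 1.02, each of which makes 4 members higher.

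Gene families around the members were given from lists of ligands, receptors, kinases, STATs, inhibitors and downstream adaptors. Of their 62 other symbols 60 were found, all but Osm and Lnk. Lnk is an older symbol of Sh2b3, which is also listed and was found. Between MEFs and iPSCs 55 were compared, of which 12 were higher and 17 lower. The median difference was -0.51. Of all rows 46.0% were past the rule in this contrast, 21.1% higher and 25.0% lower, so the count is near the background. At day 3 against MEFs 0 of 52 were past the rule, beside 0.221% of 11740 rows. At day 6 against MEFs 1 of 52 was, beside 1.35% of 11816 rows. That gene was Il6, the inflammatory cytokine that also signals through gp130, at 1.77 FPKM in MEFs, then 1.56 at day 3, 5.18 at day 6 and 0.132 in iPSCs.

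All 7 gp130 family ligands compared, the member Lif among them, were lower in iPSCs than in MEFs, beside 25.0% of all rows. In all, 10 ligands were found. Ctf2, Ebi3 and Il27 stayed under 1 FPKM in both libraries and were not compared. Each stood above its MEF value in iPSCs, at 0.0344 and 0.310 FPKM for Ctf2, 0.0629 and 0.174 for Ebi3, and 0 and 0.0444 for Il27. Il6, Il11 and Clcf1 reached 1 FPKM in MEFs but not in iPSCs, so the minimum level partly shapes this count. Clcf1, a ligand that also signals through gp130 and LIFR, was at 10.5 FPKM in MEFs and 0.410 FPKM in iPSCs.

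Among receptors that share gp130, the makeup changed with Lifr. Osmr, the oncostatin M receptor chain that also pairs with gp130, was at 38.2 FPKM in MEFs, then 44.0 at day 3, 54.5 at day 6 and 0.385 in iPSCs. Osmr exceeded Lifr in the first 3 libraries and lay below it in iPSCs. Il11ra1, the IL-11 receptor chain, was at 20.3 and 5.17 FPKM in MEFs and iPSCs. Higher in iPSCs were Cntfr, the ciliary neurotrophic factor receptor, at 0.0452 and 2.77 FPKM, and Il27ra at 0.316 and 1.67. Lifr held 1.43% of the summed FPKM of the 7 receptor genes in MEFs and 44.1% in iPSCs, and Il6st 75.1% and 29.8%.

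The kinase and STAT families had members on both sides. Jak3, a kinase known mainly from lymphocytes, was at 2.22 FPKM in MEFs and 9.22 FPKM in iPSCs, and its share of the 4 JAK genes was 2.66% and 22.2%. In iPSCs Jak3 stood above Jak2. Tyk2 was within the rule at 8.06 and 6.78 FPKM. While Stat3 was lower in iPSCs, Stat2 and Stat4 were higher, Stat4 at 0.0244 and 2.24 FPKM. Stat6 (31.4 and 18.7 FPKM) was within the rule.

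Jak3 and the phosphatase Ptpn6 are abundant in blood cells, and the levels of macrophage and leukocyte markers are given beside them. Ptpn6, which removes phosphate from JAKs, was at 0.525 FPKM in MEFs, then 0.317 at day 3, 0.401 at day 6 and 10.5 FPKM in iPSCs. Of 15 leukocyte markers found, 6 were listed at 0 in iPSCs, namely Ptprc, Emr1, Lyz1, Tyrobp, C1qa and C1qb, and Lyz2 was at 0.0298 FPKM against 52.9 in MEFs. The sum of the 15 was 107 FPKM in MEFs, then 81.6 at day 3, 92.1 at day 6 and 52.8 in iPSCs. Not all markers were lower in iPSCs. Laptm5, a lysosomal membrane protein of blood cells, was past the rule at 4.31 FPKM in MEFs and 38.5 FPKM in iPSCs, and Cd68 was within it at 8.45 and 11.9. Of 12 markers compared, 10 were lower and 1 higher, beside 25.0% of all rows lower and 21.1% higher. The markers' part in the Jak3 and Ptpn6 values was not tested.

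Within the SOCS family, Socs3 came to dominate in iPSCs. The 8 genes summed to 61.3 FPKM in MEFs and 111 in iPSCs, and Socs3 held 23.6% and 58.6% of those sums. In the first 3 libraries Socs3, Socs4, Socs5 and Socs6 had similar shares, between 17.1% and 23.6%. Socs5 was lower in iPSCs, at 12.1 and 1.89 FPKM, and Socs7 was higher, at 3.94 and 9.92. Cish, the founding member of the family and a STAT5 target, was at 1.30 FPKM in MEFs, then 3.29 at day 3, 1.47 at day 6 and 1.12 in iPSCs, with no stage past the rule.

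**Figure D3:**
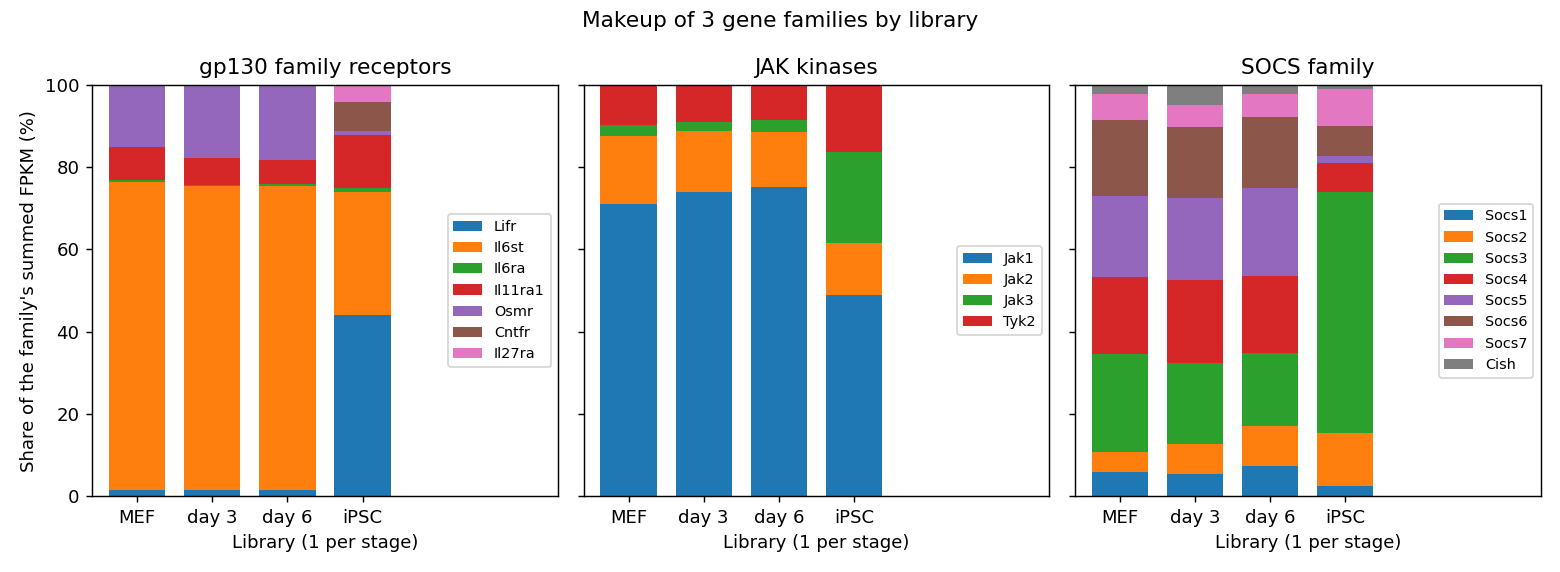
Share (%) of each gene in the summed FPKM of the gp130 family receptors, the JAK kinases and the SOCS family, as stacked bars for 1 library per stage. The bars of the first 3 libraries are alike, and in iPSCs Lifr (44.1%), Jak3 (22.2%) and Socs3 (58.6%) hold larger shares than in MEFs (1.43%, 2.66% and 23.6%).

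All 3 PIM kinases, the member Pim1 among them, were higher in iPSCs than in MEFs, beside 21.1% of all rows. Pim3 was at 12.3 FPKM in MEFs, then 10.8 at day 3, 7.34 at day 6 and 34.7 in iPSCs, and Pim2 was at 1.25, 1.31, 0.985 and 5.77. Like Pim1, both were lowest at day 6. Pim1 held between 42.1% and 45.7% of the family's sum in every library, so the sum changed and its makeup hardly did.

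Of 9 other inhibitors compared, 3 were higher in iPSCs and 1 lower, close to the 46.0% of all rows past the rule. The higher ones were Ptpn6, Pias2 (19.7 and 49.2 FPKM) and Pias4 (13.9 and 32.1), and the lower one was Ptpre (3.77 and 0.278). Pias3, whose protein binds STAT3, was at 20.0 and 18.1 FPKM. Of 21 genes of the SHP2, RAS and PI3K arm, through which gp130 also signals, 1 was higher and 6 were lower, with a median of -0.65, beside 21.1% of all rows higher and 25.0% lower. Gab1, a docking protein of that arm, was higher at 9.26 and 40.5 FPKM. Ptpn11, which encodes SHP2, was at 39.0 and 13.7, Pik3r1 at 49.1 and 4.34 and Akt1 at 124 and 27.3.

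Genes described as STAT3 or LIF targets in embryonic stem cells did not move as one. Leaving out Stat3, Socs3 and Pim1, 17 were compared between MEFs and iPSCs, of which 8 were higher and 7 lower. Of all rows 21.1% were higher and 25.0% lower. The median difference of the targets was 0.86, against -0.05 over all rows. Tfcp2l1, a naive pluripotency factor, was at 1.25 and 40.4 FPKM, Klf5 at 6.69 and 38.6, Sall4 at 0.0307 and 54.5, and Mcl1, a survival factor, at 68.6 and 190. The 7 lower genes were Junb, Myc, Zfp36, Cebpb, Fos, Ier2 and Ier3, of which Junb was at 139 and 9.14 FPKM and Fos at 122 and 10.5. Of these 7, Junb, Zfp36, Fos, Ier2 and Ier3 also stand in the immediate early list, of which 11 of 12 genes were lower in iPSCs, while Socs3 and Pim1 were higher. At day 6 against MEFs all 15 targets compared were within the rule. The induced Myc and Klf4 copies are not separated from the resident genes in a table of genes.

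**Figure D4:**
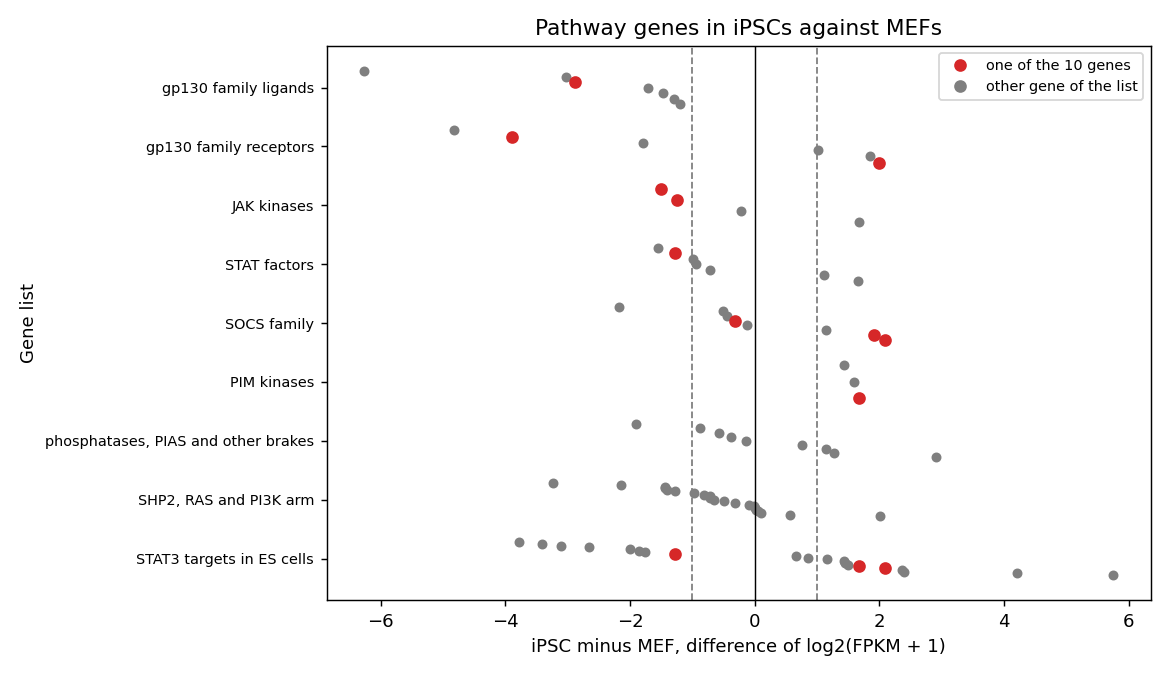
Difference of log2(FPKM + 1) between the iPSC and MEF libraries for the genes of 9 lists (1 point per gene, red for the 10 genes described, dashed lines at the rule of 1). Genes under 1 FPKM in both libraries are not drawn, among them the ligands Ctf2, Ebi3 and Il27. All ligands drawn lie to the left and all PIM kinases to the right, while receptors and STAT3 targets fall on both sides.

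The shapes of the members' profiles over the 4 libraries were compared with each other and with all genes. Likeness was the Euclidean distance between centred log2(FPKM + 1) profiles, where 0 is the same shape. Jak1 and Stat3 were the closest pair of members at 0.25, then Jak2 and Stat3 at 0.26, Socs3 and Pim1 at 0.36 and Lifr and Socs3 at 0.41. The farthest pair was Il6st and Socs3 at 5.33. Among all genes of at least 5 FPKM in their highest library, those most like Lifr were Eme1 (0.03), Tpx2 (0.03) and 1110001A16Rik (0.04). Nearest to Socs3 were Tmem170 (0.04), Dgka (0.06) and Zfp692 (0.07), and to Il6st Scara3 (0.09), Epdr1 (0.09) and Ephx1 (0.11). The genes nearest to Lif were Fam180a (0.15), Lgr5 (0.17) and the immediate early gene Nr4a1 (0.17). Nearest to Jak1 were 9430020K01Rik, Akap11 and Cep170 (each at 0.02), to Jak2 Lass5 (0.02), Pomgnt1 (0.03) and Kalrn (0.03), and to Stat3 Myo1e (0.03), Sec16a (0.05) and Slc39a14 (0.05). Those most like Pim1 were Prrg4 (0.06), Zfp185 (0.09) and Ngfrap1 (0.10). The genes nearest to Socs2 lay farther off, Hmga1 at 0.26, Cxadr at 0.27 and a row without a symbol at 0.28. Socs1, with a range under 1, was not compared in this way. With 4 points, 3 of them alike, such a distance mostly reads the step to iPSCs and describes these libraries only.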

How the data were processed

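Long RNA was measured in 4 libraries, 1 per stage. The 4 small RNA libraries were not analysed here. The authors deposited 1 table with an FPKM value per gene and library, per the file headers. The submitters' processing notes name HISAT2, Cufflinks and the mouse build mm9, without versions or roles. The sources used here do not state the gene models, the strand setting, any filter or any pooling. Jak1 overlaps Raver2 in RefSeq (GRCm38.p6), and Stat3, Socs2 and Pim1 each overlap a long noncoding RNA gene, so reads of these pairs may not be fully separated.

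Values were compared as log2(FPKM + 1), with a difference of at least 1 and at least 1 FPKM in the higher library as the rule of size. This scale understates differences of weakly expressed genes. With 1 library per group there was no test, and the depth is unknown apart from the relative values given. Relative depth was the most frequent ratio of values among rows under 0.06 FPKM in both libraries. A symbol on several rows was represented by its highest row. Every member's Ensembl identifier (10 of 10) was found in the reference table of gene names.

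The members and lists were chosen with earlier results of these data known. The text names all members, other pathway genes past the rule or at 10 FPKM or more in any library, the highest marker genes and those at 0, and for each member with a log2 range of at least 1, the 3 rows most alike in profile. Family shares, percentages of the MEF level and the range over the first 3 libraries were added after values were seen, as were a few genes named below those limits (Cish and Tyk2 among them). Some genes of the lists are not reported here. Alternatives were 2 pseudocounts, 2 minimum levels, 3 scalings and a larger difference. Python 3.11.15, numpy 2.4.6 and pandas 2.3.3 were used.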

Additional observations from a re-analysis of the deposited data

How the results depend on the processing

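Of 400 member differences recomputed (10 members, 5 contrasts, 8 alternatives), 380 stayed on their side of the rule of size, 14 left it, 6 entered it, and among those past it 0 changed sign. Of the 14, 9 came from the larger difference. The 2 minimum levels, each with 50 differences unchanged, could not move any call. All members were above 1 FPKM, and those past the rule were above 5 FPKM in the higher library. At the main setting 8 members were past the rule in iPSCs against day 6 and 9 against MEFs. In the other contrasts it was 0, so most of the 380 were differences that began within the rule. With a pseudocount of 0.1, 1 member was past the rule at day 6 against day 3 (Lif, lower) and 1 at day 6 against MEFs (Socs2, higher). Scaling to the same sum also gave 1 for day 6 against MEFs. With a log2 difference of 2, 4 members were past the rule in iPSCs against day 6, of which 2 were lower, and 4 against MEFs, 2 higher and 2 lower. Scaling moved the median of all rows for iPSCs against MEFs from -0.05 to between 0.04 and 0.13, and the split of all rows from 2724 higher and 3232 lower to 3226 and 2826 at the same upper quartile, with the members' calls in that contrast unchanged under all 3 scalings. The Jak2 difference between iPSCs and day 6 fell within the rule under the 3 scalings, at -0.97, -0.90 and -0.95. For these shifts the cause was not tested. No paired analysis was possible because no group held more than 1 library, and for the same reason no replicate could be left out. Unknown depth limits the precision of low values, most of all at day 3.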
